A study of Mus musculus with 8 samples.

Results

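The genes examined here encode the subunits of the mitochondrial respiratory chain and of the ATP synthase, on which cells depend for oxidative phosphorylation. They were taken by symbol from the GENCODE M21 annotation, as protein-coding genes whose names begin with Ndufa, Ndufb, Ndufc, Ndufs or Ndufv (complex I, without the assembly factors named Ndufaf), Sdha to Sdhd (complex II), Uqcr (complex III), Cox4 to Cox8 (complex IV) or Atp5 (complex V), together with the mitochondrially encoded mt-Nd, mt-Cytb, mt-Co and mt-Atp genes. The rule gave 99 of the 54838 genes counted. Of these, 86 are nuclear genes and 13 lie on the mitochondrial chromosome, and they divide into 45 genes of complex I, 4 of complex II, 9 of complex III, 21 of complex IV and 20 of complex V.

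RNA-seq was performed on mouse *iMLL-AF9* bone marrow cells, which carry a doxycycline-inducible *MLL-AF9* leukemia oncogene and are labelled as leukemic stem cells of genotype WT, although the description of the series calls them preleukemic. One group of 4 samples received DMSO, the solvent control. Another group of 4 received IOX5, an inhibitor of the oxygen-sensing prolyl hydroxylases (PHDs), among them PHD2. Every sample of both groups shares the *iMLL-AF9* background. The dose, the duration of treatment, the age of the mice, whether the samples came from separate animals or cultures, and what the replicate numbers 1 to 4 stand for are not stated in the sources used here, so p-values measure the spread between these samples, which may be technical. Reads counted on genes numbered 14116054, 13033309, 12343770 and 13131735 in DMSO replicates 1 to 4 and 12206073, 11351507, 12708888 and 11631647 in IOX5 replicates 1 to 4.

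Markers of myeloid progenitors were present. The summed level of 12 myeloid progenitor markers, of which *Mpo* was the most abundant, lay between 4849 and 8328 CPM (reads of a gene per 1000000 reads on genes) in DMSO samples and between 5509 and 9324 CPM in IOX5 samples. Replicates 1 and 2 stood apart from 3 and 4 in both groups. The sums in replicates 1 to 4 were 5168, 4849, 8328 and 7751 CPM with DMSO and 5770, 5509, 9230 and 9324 CPM with IOX5. With the replicate block described below, 8 of the 12 were called higher, as were 11.2% of all genes, and none was without it by edgeR. The 10 markers of T and B cells summed to at most 8.71 CPM in any sample, nearly all of it *Cd79b*, and no reads of *Cd3g*, *Cd4*, *Cd8a* or *Ms4a1* were counted. The 8 erythroid markers, with *Hbb-bt* the most abundant, summed to at most 28.2 CPM in a DMSO sample and 43.5 CPM in an IOX5 sample, and 8 markers of stroma and endothelium to at most 164.8 and 219.8 CPM, with *Pecam1* the most abundant. All 5 erythroid markers tested had positive log2 fold changes, with a median of 0.52, and the block called *Hbb-bs*, *Hbb-bt* and *Pecam1* higher (edgeR adjusted p = 0.000289, 0.000675 and 0.00134, against 0.463, 0.478 and 0.369 without the block). The 8 macrophage markers summed to 194.9, 206.4, 148.2 and 178.9 CPM in DMSO replicates 1 to 4 and to 236.4, 501.2, 253.8 and 226.0 CPM in IOX5 replicates 1 to 4, with *Csf1r* the most abundant and *C1qa* and *Marco* near 0. All 6 macrophage markers tested had positive log2 fold changes, none with an adjusted p under 0.05 by edgeR, and 2 of them (*Adgre1* and *Mrc1*) were called higher with the block. The part of these cells in the results that follow was not tested, and in bulk RNA a change in the number of cells of a type cannot be told apart from a change in RNA per cell.

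Complexes I to IV pass electrons from NADH and succinate to oxygen, and complexes I, III and IV pump protons across the inner mitochondrial membrane while complex V uses the resulting gradient to make ATP. Subunits of complexes I, III, IV and V are encoded partly in the nucleus and partly in mitochondrial DNA, whereas complex II is entirely nuclear. PHD2 marks the hypoxia-inducible factors (HIFs) for degradation when oxygen is plentiful, and stabilized HIF is known to limit mitochondrial respiration, in part through pyruvate dehydrogenase kinase and through exchange of certain subunit isoforms.

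The comparison of IOX5 with DMSO asks whether the messenger RNAs of these subunits differ with IOX5 treatment. Differences were small. Of the 99 genes, 88 had enough reads to be tested and 11 did not, and the log2 fold changes of the 88 ran from -0.29 to 0.58 with a median of 0.040, beside 0.017 over all 12405 genes tested. Their signs were 56 positive and 32 negative, against 6550 and 5855 over all genes. By edgeR's quasi-likelihood test with Benjamini-Hochberg adjustment over all genes, 1 subunit gene, *Ndufa1*, rose and 0 fell at an adjusted p under 0.05, whereas 0.774% of all genes were called higher and 1.25% lower. DESeq2 called 12 higher and 0 lower, beside 3.94% and 4.85% of all genes. At an unadjusted p under 0.05, 23 of the 88 passed by edgeR (26.1%), beside 20.2% of all genes.

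Samples with the same replicate number deviated together, and the same test was therefore repeated with the number as a block. It called 16 subunit genes higher and 1 lower, where 11.2% of all genes were called higher and 9.43% lower. The higher calls were thus 18.2% and the lower calls 1.14% of the subunit genes tested, and whether these shares differ from those of all genes was not tested. Among the 1526 genes no longer than the median nuclear subunit gene, the block called 14.8% higher and 2.16% lower. With 1 replicate number left out at a time, the block gave 5 higher and 1 lower (*mt-Nd6*) without number 1, where it called 8.07% and 5.28% of all genes. It gave 14 and 0 without number 2 (9.03% and 8.2% of all genes), 7 and 0 without number 3 (5.14% and 3.23%), and 11 and 8 without number 4 (10.9% and 8.48%). In 15 of the 88 genes every IOX5 sample lay above every DMSO sample, and in 1 gene every IOX5 sample lay below, where these patterns were found for 5.98% and 8.3% of all genes tested.

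**Figure D1:**
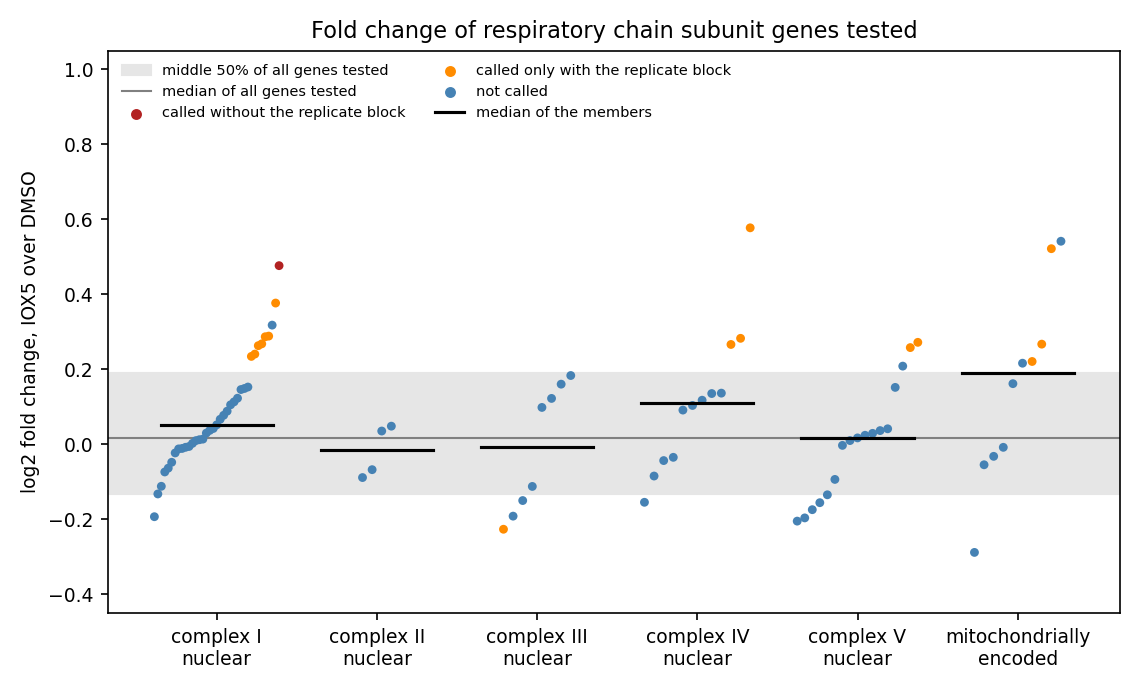
Each point is 1 of the 88 subunit genes tested, placed by complex and genome, with its log2 fold change (IOX5 over DMSO, 4 samples each) on the vertical axis; black bars are medians, and the gray band and line are the middle 50% and the median of all 12405 genes. *Ndufa1* alone was called without the replicate block, and 53 of the 78 nuclear genes lie within the band.

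By genome, the 78 nuclear genes tested had a median log2 fold change of 0.037, with 50 positive and 28 negative. With the block and without replicate number 4, more of the nuclear fold changes were negative than positive. The 10 mitochondrial genes had a median of 0.19, with 6 positive and 4 negative. The mitochondrial median was -0.032 over the 5 genes that share at most 10% of their read-length windows with other annotated transcripts. The nuclear median was 0.052 in complex I (37 genes), -0.016 in complex II (4 genes), -0.0066 in complex III (8 genes), 0.11 in complex IV (12 genes) and 0.017 in complex V (17 genes). The complex III median turned positive without genes that share over 10% of their windows. That of complex V turned negative without IOX5 replicate 4. With the block and without replicate number 4, negative fold changes outnumbered positive ones in nuclear complexes I and V. After removal of the trend of fold change on gene length and GC content, the nuclear median was -0.052, and the medians of complexes I to V were -0.024, -0.084, -0.083, -0.030 and -0.097, all negative. With the block, the calls were 8 higher and 0 lower in nuclear complex I, none in complex II and 1 lower in complex III. There were 3 higher in complex IV, 2 higher in complex V and 3 higher among the mitochondrial genes. Over all genes the block called 11.2% higher and 9.43% lower.

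The sets of nuclear subunits were not alike in every sample. In IOX5 replicate 4 the mean log2 CPM of the 78 nuclear genes was 6.77, against 6.56, 6.57 and 6.51 in IOX5 replicates 1 to 3 and 6.52, 6.61, 6.52 and 6.53 in DMSO replicates 1 to 4. For 69 of the 78 genes this was the highest of the IOX5 samples. The mitochondrial genes went the other way, with 7.64 in IOX5 replicate 4, the lowest of the IOX5 samples, which were at 7.79, 7.74 and 7.78 in replicates 1 to 3. Without IOX5 replicate 4, edgeR called *Ndufa1*, *Cox6c* and *mt-Nd4* higher and *Atp5b* lower. Of all 12630 genes tested in that fit, 130 were called higher and 333 lower.

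**Figure D2:**
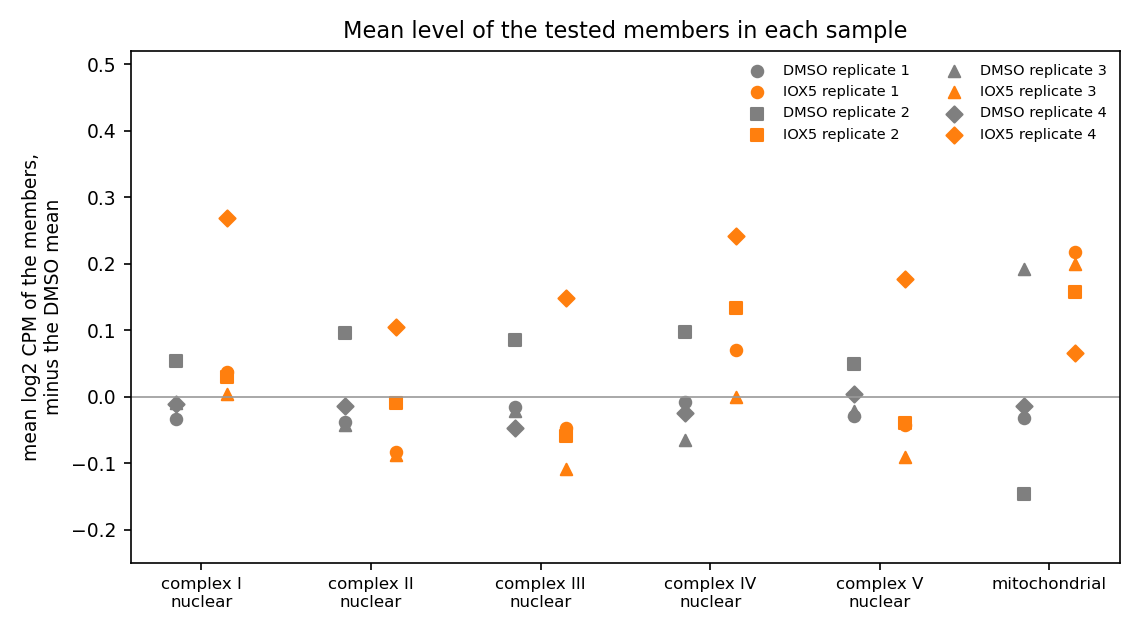
Mean log2 CPM of the tested subunit genes in each sample, minus the DMSO mean, by nuclear complex and for the mitochondrial genes; gray marks are DMSO, orange marks IOX5, and the marker shape gives the replicate number. IOX5 replicate 4 is the highest sample in all 5 nuclear complexes and the lowest IOX5 sample among the mitochondrial genes.

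Complex I takes electrons from NADH through a flavin and a chain of iron-sulfur clusters that are held by its core subunits, and many accessory subunits surround this core. The accessory subunit gene *Ndufa1* (ENSMUSG00000016427, chrX:37187588-37191163, minus strand, GRCm38) was counted at 41.9, 37.6, 41.3 and 40.5 CPM in DMSO replicates 1 to 4 and at 57.1, 57.7, 54.6 and 55.1 CPM in IOX5 replicates 1 to 4. All IOX5 samples lay above all DMSO samples, and the values varied little within either group. *Ndufa1* rose from 40.3 ± 1.87 to 56.1 ± 1.51 CPM (mean ± SD of 4 samples), which is 0.48 ± 0.059 (SE) on the log2 scale, with an edgeR adjusted p of 0.0163 without and 0.000767 with the block. The difference stayed between 0.44 and 0.50 on the log2 scale when single samples were left out. The edgeR adjusted p exceeded 0.05, and the call was lost, without DMSO replicate 1 (0.0542), 2 (0.0510), 3 (0.0636) or 4 (0.0901). It was also lost without IOX5 replicate 3 (edgeR adjusted p = 0.0619). Few genes of any kind were called in these fits. Of all genes tested, edgeR called 7 higher and 4 lower without DMSO replicate 1, and 10 and 7 without DMSO replicate 2. It called 0 in either direction without DMSO replicate 3 or 4 or IOX5 replicate 3.

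*Ndufa7*, another accessory subunit gene, stood at 45.9, 48.8, 50.05 and 50.6 CPM in DMSO replicates 1 to 4 and at 62.8, 55.0, 66.7 and 69.1 CPM in IOX5 replicates 1 to 4. The groups did not overlap, and IOX5 replicate 2 was the sample nearest to DMSO. On the log2 scale the difference was 0.38 ± 0.080 (SE), and the edgeR adjusted p was 0.0512 without the block and 0.00336 with it. *Ndufv3*, which encodes a small accessory subunit of the NADH-oxidizing module, stood at 87.9, 83.1, 76.7 and 76.2 CPM with DMSO and at 102.3, 106.5, 85.3 and 101.3 CPM with IOX5. DMSO replicate 1 exceeded IOX5 replicate 3, but the IOX5 sample was higher in each of the 4 pairs with the same number. The difference of 0.29 on the log2 scale came with an edgeR adjusted p of 0.108 without and 0.00984 with the block.

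The block also called the accessory subunit genes *Ndufa13* (log2 fold change 0.29), *Ndufa2* (0.27), *Ndufa3* (0.26), *Ndufc1* (0.24) and *Ndufa6* (0.23) higher, and in each the IOX5 samples all lay above the DMSO samples. IOX5 replicate 4 was the highest sample for all 5. *Ndufa2* was at 99.5 CPM there, against 71.4, 72.5 and 74.3 CPM in the other IOX5 samples and 62.9 to 68.9 CPM in DMSO. Without replicate number 1, 3 or 4, the block no longer called *Ndufa2*, *Ndufa3*, *Ndufc1* or *Ndufa6*, nor *Cox7a1*, *Atp5e* or *Atp5l* of the complexes below. Without number 4 the log2 fold change was 0.15 for *Ndufa2*, 0.22 for *Ndufa3*, 0.16 for *Ndufc1* and 0.20 for *Ndufa6*. Without numbers 1 and 3 in turn, the fold changes stayed about as large as with all samples. They were 0.28 and 0.28 for *Ndufa2*, 0.23 and 0.30 for *Ndufa3*, 0.25 and 0.25 for *Ndufc1* and 0.22 and 0.27 for *Ndufa6*. For *Atp5e* they were 0.27 and 0.31, and for *Atp5l* 0.28 and 0.29, against 0.19 and 0.16 without number 4. With the length and GC trend removed, all 5 accessory genes lost their call with the block, at 0.11 for *Ndufa13*, 0.12 for *Ndufa2*, 0.13 for *Ndufa3*, 0.18 for *Ndufc1* and 0.12 for *Ndufa6* (edgeR adjusted p = 0.197, 0.251, 0.152, 0.0744 and 0.204).

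The core subunits of complex I showed no such calls. The log2 fold changes of the 7 nuclear core genes ran from -0.19 to 0.067 around a median of -0.011, and none was called with or without the block. The 30 accessory genes had a median of 0.097, with 23 positive and 7 negative. With the block, 8 of them were called higher, where 11.2% of all genes were. Among all genes no longer than the median nuclear subunit gene, the block called 14.8% higher. Without replicate number 4, positive fold changes no longer outnumbered negative ones among the accessory genes with the block. With the length and GC trend removed, the accessory genes were 14 positive and 16 negative with a median of -0.0056, and the core genes 1 positive and 6 negative. *Ndufs1*, the largest core subunit, which carries iron-sulfur clusters, stood at 178.9, 186.0, 184.3 and 177.4 CPM with DMSO and at 151.8, 142.4, 160.8 and 180.8 CPM with IOX5. Its values were lower with IOX5 in replicates 1 to 3 and not in replicate 4, and its log2 fold change of -0.19 had an edgeR adjusted p of 0.205. *Ndufv1*, which holds the flavin, had a log2 fold change of 0.04 (edgeR adjusted p = 0.812). Whether core and accessory genes differ was not tested.

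**Figure D3:**
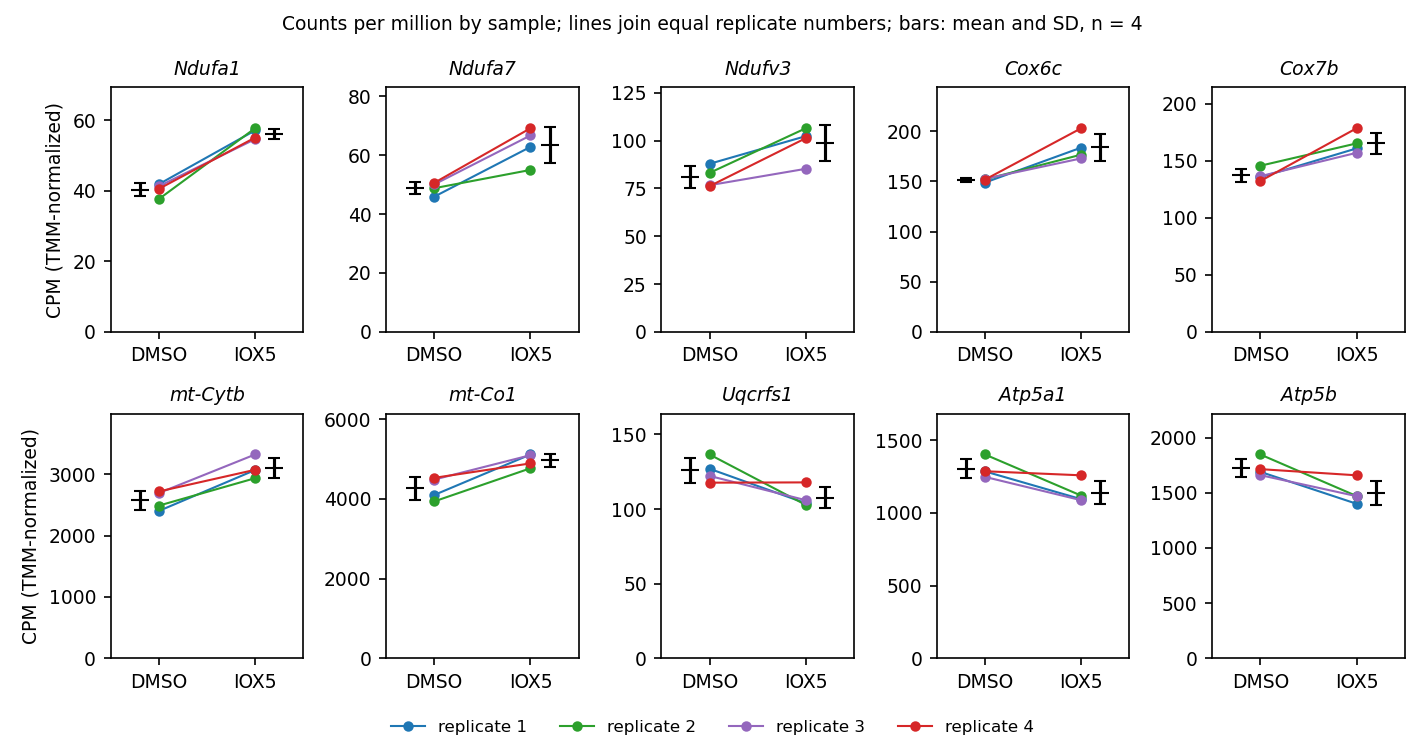
CPM of 10 subunit genes in each sample on linear axes that start at 0; lines join samples with the same replicate number, and black bars give the mean and SD of each group (n = 4). The lines rise in all 4 pairs for *Ndufa1*, *Ndufa7*, *Ndufv3*, *Cox6c*, *Cox7b*, *mt-Cytb* and *mt-Co1*, and the line of replicate 4 is the flattest for *Uqcrfs1*, *Atp5a1* and *Atp5b*.

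Complex II, or succinate dehydrogenase, links the tricarboxylic acid cycle to the chain. None of its 4 genes was called with or without the block. *Sdha*, the flavoprotein, stood at 366.6 ± 16.5 CPM with DMSO and 344.9 ± 18.2 CPM with IOX5 (mean ± SD of 4 samples; edgeR adjusted p = 0.450). On the log2 scale the difference was -0.09 for *Sdha*, -0.07 for *Sdhd* and 0.04 for *Sdhc*, the membrane anchors, and 0.05 for the iron-sulfur protein *Sdhb*. The sign for *Sdhb* was negative without IOX5 replicate 4, and those for *Sdhb* and *Sdhc* were negative after removal of the length and GC trend.

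Complex III passes electrons from ubiquinol to cytochrome c. *Uqcrfs1*, which encodes its Rieske iron-sulfur protein, stood at 127.0, 136.6, 122.2 and 117.7 CPM in DMSO replicates 1 to 4 and at 103.9, 102.7, 105.9 and 117.9 CPM in IOX5 replicates 1 to 4. IOX5 samples 1 to 3 lay below every DMSO sample, and replicate 4 was nearly equal in both groups. With a log2 fold change of -0.23 ± 0.070 (SE), *Uqcrfs1* was the only subunit gene called lower with the block (edgeR adjusted p = 0.121 without and 0.0426 with it). This call was lost without number 1, 2 or 3 (edgeR adjusted p = 0.152, 0.122 and 0.146 with the block) and kept without number 4 (0.0130). The core proteins *Uqcrc1* and *Uqcrc2* had log2 fold changes of -0.19 and -0.11 (edgeR adjusted p = 0.235 and 0.376). The 5 accessory genes had a median of 0.12, or 0.0061 with the length and GC trend removed, with *Uqcr10* at 0.18 (edgeR adjusted p = 0.219).

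A further gene of complex III, *Cyc1*, encodes cytochrome c1 but falls outside the naming rule. It stood at 170.3 ± 9.90 CPM with DMSO and 148.9 ± 11.9 CPM with IOX5 (SD, n = 4 each), with all IOX5 samples below all DMSO samples. On the log2 scale it differed by -0.19, with an edgeR adjusted p of 0.190 without and 0.0529 with the block.

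Complex IV, cytochrome c oxidase, reduces oxygen to water, and its catalytic core is mitochondrially encoded while its nuclear subunits surround that core. *Cox6c* was counted at 148.7, 151.9, 152.4 and 151.6 CPM in DMSO replicates 1 to 4 and at 183.6, 176.5, 172.8 and 202.8 CPM in IOX5 replicates 1 to 4. The DMSO samples were nearly equal and all lay below the IOX5 samples. The difference was 0.28 ± 0.062 (SE) on the log2 scale, and edgeR gave an adjusted p of 0.0545 without and 0.00944 with the block. *Cox7b* stood at 135.7, 145.7, 136.6 and 132.3 CPM with DMSO and at 161.0, 165.4, 157.1 and 178.7 CPM with IOX5, again without overlap. This difference was 0.27 ± 0.061 (SE) on the log2 scale, with edgeR adjusted p-values of 0.0590 and 0.0132 in the same order.

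Complex IV has alternative subunit isoforms, and some of them are tissue specific or respond to HIF. *Cox4i1*, the general isoform of subunit 4, stood at 414.7 ± 17.7 CPM with DMSO and 402.6 ± 40.6 CPM with IOX5 (log2 fold change -0.04, edgeR adjusted p = 0.797). *Cox4i2*, the isoform known to be induced by HIF, was close to 0, at 0.28, 0, 0.24 and 0.54 CPM with DMSO and 0.40, 0.089, 0.078 and 0.43 CPM with IOX5, and it was too low to test. *Ndufa4l2*, the HIF-responsive relative of *Ndufa4*, had 1 DMSO sample at 0.081 CPM and no reads in the other samples. *Ndufa4* itself, now assigned to complex IV but kept here with complex I by its symbol, had a log2 fold change of 0.00 (edgeR adjusted p = 0.989). A switch toward the HIF-responsive isoforms was thus not detectable at this depth.

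The muscle isoform *Cox7a1* was low, at 2.56 ± 0.557 CPM with DMSO and 3.84 ± 0.822 CPM with IOX5 (SD, n = 4 each). Its IOX5 samples all lay above its DMSO samples, and the log2 fold change of 0.58, the highest among the 88 genes, had an edgeR adjusted p of 0.217 without and 0.0326 with the block. The call of *Cox7a1* was lost whichever number was left out (edgeR adjusted p = 0.0855, 0.0713, 0.129 and 0.0555 without numbers 1 to 4) and with the length and GC trend removed (0.0920), with log2 fold changes of 0.42 to 0.61. The widely expressed *Cox7a2* stood at 133.9 ± 6.93 and 145.3 ± 12.4 CPM (log2 fold change 0.12), and *Cox7a2l*, a supercomplex factor, at 89.2 ± 5.06 and 95.9 ± 3.97 CPM (0.10). *Cox6a1* had a log2 fold change of 0.09, while its muscle isoform *Cox6a2* was below 1 CPM in every sample. The other genes not tested were *Cox6b2*, *Cox7b2*, *Cox8b*, *Cox8c* and a second *Atp5o* entry of the annotation, which had no reads but overlaps exons of *Atp5o* and *Donson* on its strand and shares 81.2% of its windows, besides 3 mitochondrial genes described below. For *Cox7b2* and *Cox8b* no read was counted among 100522983, and a count of 0 allows up to 0.0298 CPM, which covers counting error only.

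Complex V turns with the proton flow, and ATP is made in its F1 head, where the alpha and beta subunits alternate. *Atp5b*, the catalytic beta subunit gene, stood at 1689, 1846, 1659 and 1713 CPM in DMSO replicates 1 to 4 and at 1399, 1469, 1468 and 1657 CPM in IOX5 replicates 1 to 4. It is the 1 subunit gene in which all IOX5 samples lay below all DMSO samples, and the closest pair was DMSO replicate 3 at 1659 CPM and IOX5 replicate 4 at 1657 CPM. *Atp5b* differed by -0.20 ± 0.068 (SE) on the log2 scale, with an edgeR adjusted p of 0.144 without and 0.0517 with the block. *Atp5a1*, the alpha subunit gene, stood at 1286, 1402, 1248 and 1287 CPM with DMSO and at 1094, 1119, 1087 and 1259 CPM with IOX5, with a log2 fold change of -0.20 (edgeR adjusted p = 0.155, and 0.0592 with the block).

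Within the same head, the small epsilon subunit gene *Atp5e* stood at 106.4, 116.2, 109.1 and 111.0 CPM with DMSO and at 125.3, 132.1, 119.5 and 157.8 CPM with IOX5. Its groups did not overlap, and its log2 fold change was 0.27 (edgeR adjusted p = 0.137 without and 0.0200 with the block). The call of *Atp5e* was lost with the length and GC trend removed, where the block gave 0.18 (edgeR adjusted p = 0.0644). *Atp5l*, which encodes subunit g of the membrane part, had a log2 fold change of 0.26 (edgeR adjusted p = 0.156 and 0.03015). Of the 3 genes for the proton-carrying c ring, *Atp5g1*, *Atp5g2* and *Atp5g3*, none was called, with log2 fold changes from -0.17 to 0.02.

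Several calls depended on 1 replicate number or on the length trend. Without replicate number 4 the block called *Atp5a1*, *Atp5b*, *Atp5g1*, *Atp5g3*, *Uqcrc1*, *Uqcrfs1*, *Ndufs1* and *Cox7c* lower. With the length and GC trend removed it called 9 genes higher and 11 lower, or 10.2% and 12.5%, beside 9.56% and 13.5% of all genes, and 5 genes, *Atp5a1*, *Atp5b*, *Atp5g3*, *Uqcrc1* and *Uqcrfs1*, were lower in both of these fits. Among the higher genes, 8 were called in all 4 of the block, DESeq2, the block with the trend removed and the block without number 4. They were *Ndufa1*, *Ndufa7*, *Ndufv3*, *Cox6c*, *Cox7b*, *mt-Cytb*, *mt-Co1* and *mt-Co2*. Of these 8, the block called 4 without number 1, 7 without number 2 and 5 without number 3. *Ndufa1*, *Ndufa7*, *Ndufv3* and *mt-Co2* remained called whichever single number was left out. For *mt-Co2*, 99.5% of the read-length windows occur in other annotated transcripts, so its level is uncertain, as described below. The shares of all genes that meet such joint conditions are not given here. Whether these counts exceed them was not tested.

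The trend on length bears on these genes because most are short. Their median summed exon length was 1696.5 bases for the 78 nuclear genes tested, against 4265 bases over all genes tested with a known length. Across genes, which are not independent replicates and share the same 8 libraries, Spearman's rho between length and log2 fold change was -0.27 for the 78 genes and -0.14 for 12402 genes. The 39 shorter nuclear genes had 29 positive and 10 negative fold changes with a median of 0.089, and the 39 longer ones 21 and 18 with a median of 0.030. With the block, 7 of the shorter genes were called higher and 1 lower, or 17.9% and 2.56%, and 6 (15.4%) and 0 of the longer ones, where 14.8% and 2.16% of all shorter and 10.7% and 10.4% of all longer genes were called. Over all genes, the 1526 at or below the same length had a median of 0.11 and the 10876 longer ones a median of 0.0058. After removal of the trend, rho among the 78 genes was -0.03. All genes called by edgeR numbered 96 higher and 155 lower as counted, 65 and 182 with the trend removed, and 101 and 108 with upper-quartile factors.

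**Figure D4:**
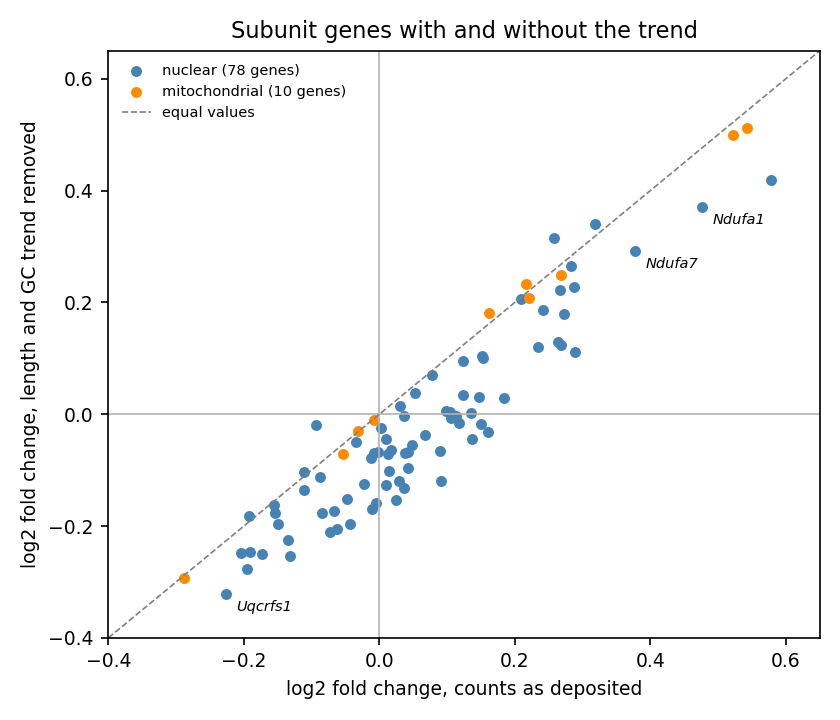
Log2 fold change (IOX5 over DMSO) of the 88 subunit genes tested as counted (horizontal) and after removal of the trend on length and GC content (vertical); the dashed line marks equal values, blue points are nuclear and orange points mitochondrial genes. Most nuclear points lie below the line, and their median falls from 0.037 to -0.052, while the mitochondrial points stay close to it.

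The 13 mitochondrial genes were read from both strands of a single circular chromosome, and their transcripts are processed from long precursors. Together they took 1.15%, 1.12%, 1.23% and 1.22% of the reads on genes in DMSO replicates 1 to 4 and 1.40%, 1.27%, 1.38% and 1.25% in IOX5 replicates 1 to 4. Every 95% Wilson interval was at most 0.0132 percentage points wide, which covers counting error only. All IOX5 samples lay above all DMSO samples, and the means were 1.18% ± 0.0551 and 1.33% ± 0.0771 (SD, n = 4 each), a difference of 0.147 percentage points, with values of 0.122 to 0.173 when any 1 sample was omitted. As a share of all reads, the means were 0.932% and 1.04%. The difference was not general among these genes, of which 10 were tested, with 6 positive and 4 negative log2 fold changes. Mean levels rose from 4265 to 4971 CPM for *mt-Co1* and from 2574 to 3098 CPM for *mt-Cytb*. They fell from 2263 to 2180 CPM for *mt-Nd1* and from 1011 to 989 CPM for *mt-Nd2*. The 86 nuclear genes together took 1.15% ± 0.0370 of the reads on genes with DMSO and 1.13% ± 0.0836 with IOX5, with IOX5 replicate 4 the highest sample at 1.25%. No test was run on these shares.

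Among the 10 mitochondrial genes tested, log2 fold changes ran from -0.29 to 0.54. *mt-Cytb* (chrM:14145-15288, plus strand), the cytochrome b of complex III, stood at 2400, 2487, 2692 and 2718 CPM in DMSO replicates 1 to 4 and at 3068, 2934, 3321 and 3071 CPM in IOX5 replicates 1 to 4. The groups did not overlap. The difference in *mt-Cytb* was 0.27 ± 0.065 (SE) on the log2 scale, with an edgeR adjusted p of 0.0676 without and 0.0141 with the block. *mt-Co1* (chrM:5328-6872, plus strand), the catalytic subunit of complex IV, stood at 4101, 3939, 4488 and 4531 CPM with DMSO and at 5118, 4772, 5101 and 4894 CPM with IOX5, also without overlap. For *mt-Co1* it was 0.22 ± 0.063 (SE), with edgeR adjusted p-values of 0.0999 and 0.0382.

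The complex I genes of the same chromosome were not called in either fit. *mt-Nd1* (chrM:2751-3707, plus strand) stood at 2190, 2266, 2256 and 2341 CPM with DMSO and at 2318, 2069, 2148 and 2184 CPM with IOX5, with overlapping groups and a log2 fold change of -0.05 (edgeR adjusted p = 0.626). On the log2 scale the difference was -0.03 for *mt-Nd2*, 0.22 for *mt-Nd4*, 0.16 for *mt-Nd5* and -0.29 for *mt-Nd6*, the 1 gene of the 13 on the minus strand (edgeR adjusted p = 0.842, 0.273, 0.430 and 0.319). For *mt-Nd4* and *mt-Nd5*, IOX5 replicates 1 to 3 lay above every DMSO sample and IOX5 replicate 4 below every DMSO sample, at 519.5 and 987.7 CPM. Without replicate number 4, the block called both genes higher, with adjusted p-values by edgeR of 0.0101 and 0.0189. It called *mt-Nd6* lower without number 1 (edgeR adjusted p = 0.00321) and with the length and GC trend removed (0.0499), and not otherwise (0.0715 with all samples).

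The remaining mitochondrial genes were counted at far lower levels. Levels per length are given as CPM per kilobase of exon (RPKM), means over the 4 DMSO samples. *mt-Co1*, *mt-Nd1* and *mt-Cytb* stood at 2760, 2365 and 2250 RPKM, whereas *mt-Co2* stood at 14.0, *mt-Atp6* at 4.24, *mt-Co3* at 2.85, *mt-Nd3* at 0.608 and *mt-Nd4l* at 0.372 RPKM. The genes of the second group share between 97.7% and 99.9% of their windows of 85 bases, the read length, with annotated pseudogenes of mitochondrial origin, most of them within chr1:24611535-24616197 and chr2:22587291-22590533, while *mt-Nd1* and *mt-Cytb* share none. A read that fits several places cannot be assigned to one of them, so the levels of these 5 genes, of *mt-Nd4* (61.2% shared) and of *mt-Co1* (35.3% shared) are uncertain, and the part of shared windows in the low levels was not tested. *mt-Atp8*, with 5 reads in all, shares no window with another annotated transcript but overlaps *mt-Atp6* at its end. Copies outside annotated transcripts were not sought, so its level is uncertain too. *mt-Nd3*, *mt-Nd4l* and *mt-Atp8* were too low to test.

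For *mt-Co2* the values were 8.75, 8.32, 12.27 and 8.88 CPM with DMSO and 12.25, 16.2, 13.2 and 13.3 CPM with IOX5, so that 1 DMSO sample exceeded 1 IOX5 sample. Their means differed by 0.52 on the log2 scale (edgeR adjusted p = 0.115 without and 0.0149 with the block). Those of *mt-Co3* differed by 0.54 (edgeR adjusted p = 0.355 without and 0.117 with the block). With the block, *mt-Co3* was called higher without number 3 (log2 fold change 0.91, edgeR adjusted p = 0.0476). It stood at 0.35 without number 2 (edgeR adjusted p = 0.327). The log2 fold change of *mt-Atp6* was -0.01, and its sign changed with the normalization. When genes with over 10% of shared windows were left out, 5 mitochondrial genes remained and their median log2 fold change was -0.032.

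**Figure D5:**
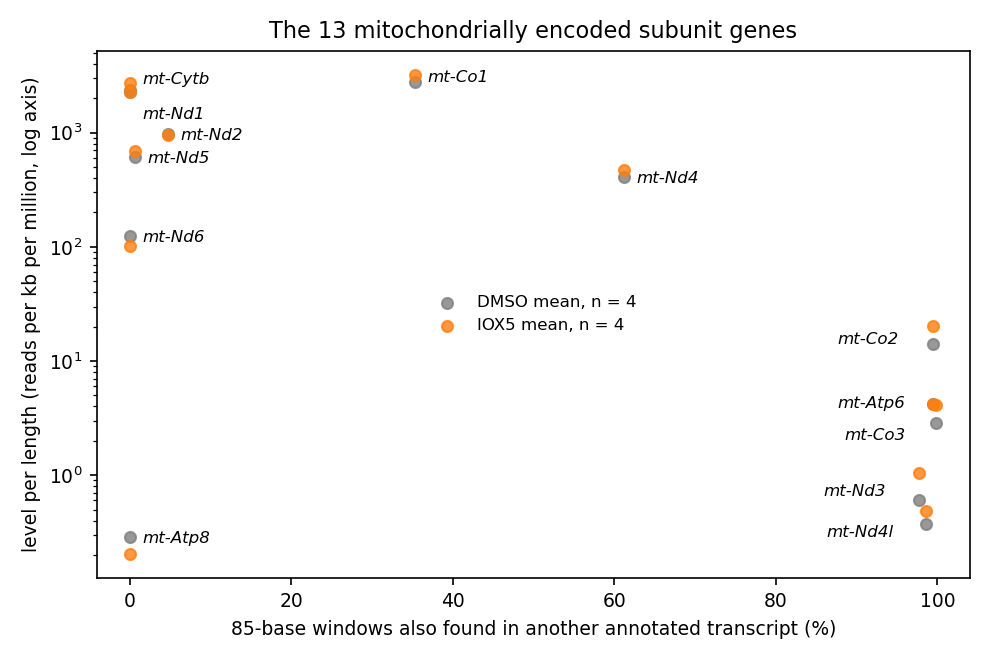
Level per length (RPKM, log axis) of the 13 mitochondrial genes, as means of 4 DMSO samples (gray) and 4 IOX5 samples (orange), against the percentage of their 85-base windows that occur in another annotated transcript. Of the 5 genes with 97.7% or more of shared windows, the highest is *mt-Co2* at 14.0 RPKM with DMSO and 20.1 with IOX5, and *mt-Nd1* and *mt-Cytb*, with none, stand at 2365 and 2250 RPKM with DMSO.

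Levels per length of the nuclear genes are given by complex. The median over the genes tested, in DMSO, was 36.8 RPKM in complex I, 64.2 in complex II, 94.0 in complex III, 100.1 in complex IV and 63.0 in complex V. The highest genes were *Atp5a1* at 416.4 ± 21.3 RPKM and *Atp5b* at 407.6 ± 19.5 RPKM (SD, n = 4 each), whose levels overlap within their spread. Next in their complexes were *Cox4i1* at 267.6 ± 11.4, *Sdhd* at 180.4 ± 8.77, *Uqcr10* at 130.7 ± 6.40 and *Ndufa2* at 115.2 ± 4.34 RPKM (SD, n = 4 each). The lowest tested was *Ndufb2* at 1.57 RPKM, and such levels depend on the annotated exon length, here 5628 bases.

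Nuclear respiratory genes are known to carry binding sites for NRF1, the ETS factor GABP and YY1 near their start sites, and HIF binds the letters ACGTG. RefSeq promoters of GRCm38.p6, from 250 bases before to 50 bases after the start, were found for 69 of the 85 nuclear symbols. On either strand, the NRF1 letters GCATGCGC were found in 14.5% of them (3.05% of all 27025 promoters, 6.12% of those of genes tested), the ETS letters CCGGAAG in 23.2% (9.93% and 21.4%), the YY1 letters AAGATGGCG in 10.1% (1.64% and 3.81%) and ACGTG in 26.1% (21.8% and 30.2%). CACGTG was counted as ACGTG on both strands. Of the nuclear genes called with the block, 12 had a promoter in the table and 9 of these (75%) held at least 1 of the 4 motifs, as did 42 of all 69 (60.9%). One stretch for each of 6 genes is shown so that the letters can be set beside the fold changes above, on the strand of the gene, with 10 bases on each side and the motif in capitals.
Ndufa1 (ACGTG, chrX:37191426-37191450, minus strand): ttgaagaggaACGTGcacacctgac
Ndufa7 (ACGTG on both strands, chr17:33824490-33824515, plus strand): ggagaggagtCACGTGagcaggggat
Ndufv3 (ACGTG, chr17:31520116-31520140, plus strand): cgattggtgaACGTGgacgcggggc
Ndufa6 (NRF1, chr15:82354357-82354384, minus strand): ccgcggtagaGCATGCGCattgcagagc
Ndufc1 (YY1, chr3:51408915-51408943, minus strand): cctgcggaacAAGATGGCGccgtccgtag
Atp5e (ETS, reverse letters, chr2:174464187-174464213, minus strand): acggccacagCTTCCGGtagccgctcg

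The median log2 fold change of the tested nuclear genes was 0.038 in the 17 with ACGTG and 0.049 in the 49 without. It was 0.090 in the 10 with the NRF1 letters and 0.034 in the 56 without, 0.079 in the 16 with the ETS letters and 0.034 in the 50 without, and 0.078 in the 7 with the YY1 letters and 0.043 in the 59 without. A match of letters is a description and not a site, and these differences were not tested.

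Genes that act with the chain were examined from lists written by hand. Of these lists, HIF target genes of the mitochondrion had the most genes called by edgeR, with 4 of 8 tested higher, beside 0.774% of all genes. Their median log2 fold change was 0.53. With the block, 6 of the 8 were called higher, beside 11.2% of all genes. *Pdk1*, the kinase that restrains pyruvate dehydrogenase, rose from 168.1 ± 17.5 to 267.2 ± 7.02 CPM (mean ± SD of 4 samples), which is 0.67 on the log2 scale (edgeR adjusted p = 0.0157). *Fam162a* (log2 fold change 0.76, edgeR adjusted p = 0.0254) and the mitophagy receptors *Bnip3* (0.98, 0.0469) and *Bnip3l* (0.65, 0.04605) also rose. *Higd1a*, a small protein that associates with the respiratory chain, had a log2 fold change of 0.39 (edgeR adjusted p = 0.0918 without and 0.00488 with the block), and *Lonp1*, the protease known to degrade the general subunit 4 isoform, of -0.04 (edgeR adjusted p = 0.853).

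Of 10 tested regulators of mitochondrial biogenesis, 2 fell and 0 rose by edgeR, beside 1.25% lower and 0.774% higher of all genes. The list median was -0.13, and 7 had negative fold changes, beside 47.2% of all genes. *Pprc1*, a coactivator related to PGC-1, fell from 99.3 ± 8.86 to 76.7 ± 3.32 CPM (log2 fold change -0.37, edgeR adjusted p = 0.0469), and *Gabpb1*, a GABP subunit, fell from 78.8 ± 1.33 to 61.6 ± 5.81 CPM (-0.35, adjusted p = 0.0485 by edgeR). With the block, which called 9.43% of all genes lower, *Gabpa* (-0.29) and *Ppargc1b* (-0.64) were called lower as well. *Nrf1* had a log2 fold change of -0.09 (edgeR adjusted p = 0.532). Without the block, this list and the HIF targets lost their calls when replicate 3 of either group or DMSO replicate 4 was left out. In each of these fits edgeR called 0 genes of all those tested.

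The other lists held no gene called by edgeR without the block, though 6 of 50 assembly factors, 7 of 22 electron carriers and ubiquinone genes and 3 of 27 genes for the expression of mitochondrial DNA had an unadjusted p under 0.05, where 20.2% of all genes had. With the block, which called 11.2% of all genes higher and 9.43% lower, 3 assembly factors were called higher, *Uqcc3* (log2 fold change 0.35), *Cox14* (0.28) and *Cox16* (0.52), and *Ndufaf4* lower (-0.28), with a list median of -0.019. Of the electron carriers and ubiquinone genes, *Etfdh* (0.29) and *Coq8a* (0.66) were called higher and *Cycs*, the mobile cytochrome c (-0.30), *Coq7* (-0.40), *Gpd2* (-0.22) and *Dhodh* (-0.31) lower, with a median of -0.045. Of the genes for the expression of mitochondrial DNA, 1 was called higher, *Hsd17b10* (0.23), and 1 lower, *Elac2* (-0.25), both of which act in tRNA processing, and 21 of the 27 had negative fold changes (median -0.071). *Lrpprc*, which stabilizes mitochondrial messenger RNAs, had a log2 fold change of -0.20 with all IOX5 samples below all DMSO samples (edgeR adjusted p = 0.155, and 0.0520 with the block).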

How the data were processed

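RNA-seq read counts of 8 samples were analysed, 4 DMSO and 4 IOX5, grouped by the treatment in their labels. The deposited counts per gene were made by the authors from poly(A)-selected, directional libraries, with cutadapt 1.18, HISAT2 2.2.1 and HTSeq 2.0.1 against GRCm38 per the labels, without normalization. The annotation file used for counting and its strand setting are not named in the sources used here, but 105071 reads on *Xist* and 21 on its antisense partner *Tsix* show counting by strand. Summary lines for unassigned reads (20.6% to 22.6% of reads) were left out. Of 54838 gene identifiers, 54809 matched GENCODE M21.

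The function filterByExpr of edgeR 4.0.16 (R 4.3.3) kept 12405 genes. TMM factors were applied, and IOX5 was compared with DMSO by the quasi-likelihood test with all 8 samples, no covariate and Benjamini-Hochberg adjustment over all genes, with calls at an adjusted p under 0.05. CPM values use TMM, and log2 CPM a prior count of 2. Deviations from group means correlated at 0.758, 0.744, 0.732 and 0.636 between samples of the same number 1 to 4, so the numbers were taken to pair the samples, on the data alone. Numbers 3 and 4 were not told apart, since DMSO replicate 4 correlated at 0.685 with IOX5 replicate 3, and DMSO replicate 3 at 0.617 with IOX5 replicate 4. The fit with a replicate block is given beside the other. No pair of replicates agreed within sampling noise (chi-square per degree of freedom 2.18 or more). Numbers 3 and 4 were the closest pair in both groups. They stood at 2.18 in DMSO and 9.36 in IOX5, against 14.1 to 23.0 and 18.4 to 41.6 for the other pairs. Whether samples 3 and 4 are as independent of each other as the rest was not tested.

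Subunit genes, lists of related genes and markers were chosen with earlier results of these data known. Genes named were those called with or without the block, all 13 mitochondrial genes, the 2 with the smallest adjusted p and the highest per length in each complex, isoform pairs, catalytic subunits, and in each related list those called and the 2 with the smallest adjusted p. A few genes of these lists are not reported here. The division into core and accessory genes, *Cyc1*, *Higd1a*, *Lonp1*, *Cycs*, *Nrf1* and a few other named genes were added after their values were seen. Alternatives were DESeq2 1.42.0, RLE and upper-quartile factors, no filter, a minimum of 10 counts, removal of a length and GC trend, mitochondrial genes left out of library sizes, an adjusted p under 0.1 and each sample left out. Fits with the block and a number left out, and those without genes that share over 10% of windows, were chosen after seeing the data. Shared windows were sought in annotated transcripts, because the genome sequence was not used here. The steps were tested on simulated data.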

Additional observations from a re-analysis of the deposited data

Results flagged for a closer look

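Of 92 groups of 4 samples examined, 8 had a sample whose distance from the others was large against the range of its group by Dixon's criterion, where chance gives about 1 in 20. Among IOX5 samples, replicate 4 was the lowest for *mt-Nd4* (519.5 CPM) and *mt-Nd5* (987.7 CPM), and the highest for *Ndufa2* (99.5 CPM), *Ndufa4* (175.1 CPM) and *Sdha* (372.0 CPM). It was also the highest for the mean log2 CPM of nuclear complex I genes (6.27). Among DMSO samples, replicate 3 was the highest for *mt-Co2* (12.3 CPM) and replicate 2 for the mean log2 CPM of all nuclear subunit genes (6.61).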

How the results depend on the processing

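The number of subunit genes called higher, 1 by edgeR, was 12 by DESeq2, 2 with upper-quartile factors and 3 with a minimum of 10 counts. It was 8 at an adjusted p under 0.1 and 16 with the replicate block. Of all 12405 genes tested, edgeR called 96 higher, DESeq2 489, the fit with upper-quartile factors 101 and the block 1394. The minimum of 10 counts gave 117 of 11373. The number of all genes at an adjusted p under 0.1 is not given here. With the block, the number of subunit genes called higher was 9 with the length and GC trend removed and 13 without genes of shared windows. It was 5, 14, 7 and 11 without replicate numbers 1, 2, 3 and 4. Over all genes, the block called 1186 higher with the trend removed, and 994, 1119, 642 and 1355 without numbers 1 to 4. The number of subunit genes called lower, 0 by edgeR, was 1 with the block, 1 with the trend removed and 11 with both. It was 1 with the block and no genes of shared windows. With the block it was 1 without number 1 and 8 without number 4. Over all genes, lower calls numbered 155 by edgeR, 1170 with the block, 182 with the trend removed and 1675 with both. The block called 650 of all genes lower without number 1 and 1058 without number 4. With 1 sample left out and no block, calls of subunit genes ran from 0 to 3 higher and from 0 to 1 lower. The fits with 0 left out any 1 DMSO sample or IOX5 replicate 3. Over all genes, calls with 1 sample left out ran from 0 to 130 higher and from 0 to 333 lower. Removal of the trend took the nuclear median log2 fold change to -0.052 and the medians of complexes I to V to -0.024, -0.084, -0.083, -0.030 and -0.097, so that those of complexes I, IV and V turned negative. With the block too these were -0.055 and -0.028, -0.083, -0.085, -0.029 and -0.10. Without genes of shared windows the mitochondrial median was -0.032 and that of complex III 0.11, and with the block -0.035 and 0.11. The complex V median ran from -0.076 without IOX5 replicate 4 to 0.045 with 1 sample left out. The paired fit alone left the median of every complex with the same sign. With the trend removed, 23 of the 88 log2 fold changes tested, all of nuclear genes, turned sign. Among the genes named by rule, signs turned under some alternative for 7. *mt-Atp6* became 0.0037 with RLE factors, 0.0087 with upper-quartile factors, 0.0013 with no filter, 0.0068 with a minimum of 10 counts and 0.00046 with the replicate block, and ran from -0.096 to 0.21 with 1 sample left out. *Ndufa4* was -0.0025 with the block. With the trend removed, *Ndufa4* was -0.024, *Ndufv1* -0.069, *Sdhb* -0.055, *Cox6a1* -0.12 and *Cox7a2* -0.015, and with the block too -0.028, -0.073, -0.054, -0.12 and -0.015. With 1 sample left out, *mt-Nd2* ran from -0.069 to 0.019, *Ndufa4* from -0.078 to 0.035, *Ndufv1* from -0.019 to 0.081, *Sdhb* from -0.021 to 0.12 and *Cox6a1* from -0.0021 to 0.14. The causes were not tested. The difference in mitochondrial share kept its direction in every alternative. The check for windows unique in the genome was run on annotated transcripts only. The isoform genes near 0 were too low to test at this depth. Whether shared windows lower the counts of mitochondrial genes with copies was not tested.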
